A study of Mus musculus with 10 samples.

Results

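Bach2, Satb1, Foxo1, Foxp1 and Id3 encode transcription regulators that hold resting T cells apart from effector differentiation, and their loci were examined here for chromatin accessibility in regulatory T cells (Tregs) that lack Vps34. Every region of open chromatin in the deposited count table that lay in the body of one of these 5 genes, or within 10 kb of it on the mouse build GRCm38, was taken as a member. This rule used position alone, but the 5 genes were chosen with earlier results of these data known. It gave 227 of 97385 peaks: 71 at Bach2, 21 at Satb1, 23 at Foxo1, 105 at Foxp1 and 7 at Id3. Of these, 212 overlapped a gene body, 188 were intronic, and 19 lay within 1 kb of an annotated transcript start. A total of 225 passed the filter on low counts and were tested. The 2 that did not were both Foxp1 peaks.

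ATAC-seq, which counts the transposase cuts in accessible DNA, was performed on CD4+ Foxp3-YFP+ TCRb+ Tregs sorted at an age of 10 days from the spleen or the lung of mice of both sexes on a C57BL/6 background. Control mice carried Foxp3Cre with Pik3c3 +/+ or +/fl alleles, and Vps34-deficient mice carried Foxp3Cre with Pik3c3 fl/fl, so that all 4 groups shared the Foxp3-driven YFP-Cre. Pik3c3 encodes Vps34, the lipid kinase that makes phosphatidylinositol 3-phosphate for endosomal traffic and autophagy. The driver acts in all cells that express Foxp3, and because the mice develop severe inflammation they were studied while young. There were 2 spleen control, 4 spleen Vps34-deficient, 2 lung control and 2 lung Vps34-deficient libraries, as the labels and the column names of the table give them. In the study's text these sizes are swapped between the spleen genotypes. Every direction given here follows the labels. The study counts its samples as mice, and the labels do not name the animal behind a library. Chromosome Y signal was 7.0 to 21.4 CPM in some libraries and 56.9 to 67.6 CPM in others of every group, so that no group consisted of repeats of a single mouse. Loss of the floxed part of Pik3c3 is not read out by ATAC-seq peaks outside it and was not analysed here.

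In resting Tregs and naive T cells, Foxo1 stays in the nucleus and drives homing genes, until antigen receptor and PI3K-Akt signalling removes it. Foxp1 maintains T cell quiescence and cooperates with Foxp3, Bach2 is a repressor that occupies sites similar to those of AP-1 and restrains effector genes, and Satb1 is a chromatin organiser used early in Treg development. Id3 blocks the DNA binding of E proteins and is lost on activation.

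Total counts ran from 9405823 to 22439699 per library. Tregs were recognised by their promoters: all 6 T cell and Treg marker genes checked, Foxp3, Il2ra, Ctla4, Ikzf2, Cd3e and Cd4, had a promoter peak in the table, and their summed promoter signal was 144.6 to 189.2 CPM (the count of a peak scaled to the column total) in every library. Of 6 B cell markers, 3 had a promoter peak (Cd79a and Ms4a1 were among those with none), with sums of 12.8 to 18.1 CPM over all libraries. Of 6 myeloid markers, 4 had a promoter peak (Lyz2 and Csf1r had none). Their sum was 38.0 to 39.1 CPM in spleen controls against 25.9 to 33.3 in spleen Vps34-deficient Tregs, and 42.1 to 48.0 in lung controls against 26.5 to 28.3 in lung Vps34-deficient Tregs. CD8 and NK cell markers, 3 of 5 with a promoter peak, summed to 21.03 to 24.45 CPM in lung controls and 30.4 to 30.5 in lung Vps34-deficient Tregs, and overlapped in spleen, at 24.9 to 29.7 against 23.5 to 33.6. Lung epithelial and endothelial markers, 2 of 6 with a promoter peak, stayed between 38.5 and 49.2 CPM. The part of these shifts in the results below was not tested. In sorted bulk cells, fewer cells of a given state and less signal per cell cannot be told apart.

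The sequences below are the central 300 bases of 6 member peaks that rose in Vps34-deficient Tregs, from the GRCm38 genome. They are shown because they are the peaks on which the genotype result turns, those of smallest p in the average effect, leaving out a Satb1 peak that overlaps an untranslated exon. Capitals mark matches, on either strand, to short motif strings: AP-1 (TGANTCA), Forkhead (TGTTTAC), TCF/LEF (CTTTGA), Runx (TGTGGT), ETS (GGAAGT), E-box (CAGCTG) and kappaB (GGGANTTCC). No 2 matches overlapped in these windows.

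Foxp1 peak 36.3 kb from the start, chr6:99486284-99486583, plus strand: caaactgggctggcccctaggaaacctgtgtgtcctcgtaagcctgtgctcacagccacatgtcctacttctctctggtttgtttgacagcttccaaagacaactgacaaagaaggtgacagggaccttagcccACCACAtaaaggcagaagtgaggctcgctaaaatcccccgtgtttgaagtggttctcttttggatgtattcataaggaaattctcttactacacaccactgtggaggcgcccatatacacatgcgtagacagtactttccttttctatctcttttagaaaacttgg

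Foxp1 peak 116.4 kb from the start, chr6:99406173-99406472, plus strand: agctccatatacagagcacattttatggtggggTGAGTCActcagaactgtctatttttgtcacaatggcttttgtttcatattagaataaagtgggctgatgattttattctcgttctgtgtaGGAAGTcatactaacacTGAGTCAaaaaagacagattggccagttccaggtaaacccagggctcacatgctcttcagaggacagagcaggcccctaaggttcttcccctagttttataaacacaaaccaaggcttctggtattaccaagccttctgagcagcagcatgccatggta

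Foxp1 peak 272.9 kb from the start, chr6:99249670-99249969, plus strand: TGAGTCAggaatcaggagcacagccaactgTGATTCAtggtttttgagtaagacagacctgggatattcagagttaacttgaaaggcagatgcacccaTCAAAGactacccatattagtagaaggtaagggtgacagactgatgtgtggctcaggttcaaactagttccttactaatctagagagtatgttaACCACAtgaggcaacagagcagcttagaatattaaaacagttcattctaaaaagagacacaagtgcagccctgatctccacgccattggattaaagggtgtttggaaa

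Bach2 peak 156.1 kb from the start, chr4:32394801-32395100, plus strand: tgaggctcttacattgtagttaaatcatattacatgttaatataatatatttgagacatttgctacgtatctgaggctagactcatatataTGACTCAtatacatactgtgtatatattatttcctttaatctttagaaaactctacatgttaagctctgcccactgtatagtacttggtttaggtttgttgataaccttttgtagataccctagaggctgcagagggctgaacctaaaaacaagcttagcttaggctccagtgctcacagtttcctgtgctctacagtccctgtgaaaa

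Bach2 peak 136.6 kb from the start, chr4:32375274-32375573, plus strand: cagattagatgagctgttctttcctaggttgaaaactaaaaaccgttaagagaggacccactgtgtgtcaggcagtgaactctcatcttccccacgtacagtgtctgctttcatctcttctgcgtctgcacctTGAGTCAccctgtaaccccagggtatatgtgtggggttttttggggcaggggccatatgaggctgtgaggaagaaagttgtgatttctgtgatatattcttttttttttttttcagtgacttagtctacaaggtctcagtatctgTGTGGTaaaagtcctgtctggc

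Satb1 peak 69.6 kb from the start, chr17:51763554-51763853, plus strand: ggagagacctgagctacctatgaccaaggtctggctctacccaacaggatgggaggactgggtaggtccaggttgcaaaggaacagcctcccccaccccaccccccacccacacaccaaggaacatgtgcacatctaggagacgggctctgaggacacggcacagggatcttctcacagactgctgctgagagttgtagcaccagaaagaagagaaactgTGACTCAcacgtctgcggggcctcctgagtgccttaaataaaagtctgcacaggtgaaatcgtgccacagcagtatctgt

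The AP-1 string was present in 6 of the 14 member peaks that were called higher on average over tissues, or 42.9%, and in 14.5% of all 227 members. Its share was 13.0% of the 97250 peaks of the table with a window, 13.1% of all peaks called higher and 29.8% of all peaks called lower in the same average effect. The Foxp1 windows at 116.4 kb and 272.9 kb each held 2 AP-1 strings, and the Satb1 window and both Bach2 windows 1 each, whereas the window of the Foxp1 peak with the smallest p held none and carried a single Runx string. The Forkhead string was found in 0 of the 14, in 5.73% of members and in 4.34% of all windows. The TCF/LEF string was in 28.6% of the 14, 28.2% of members and 21.6% of all windows, and the ETS string in 35.7%, 23.3% and 26.9%. The Runx string was in 28.6% of the 14, 25.1% of members and 26.5% of all windows, and the E-box in 21.4%, 15.4% and 17.8%. The kappaB string was in 0 of the 14, 1.76% of members and 1.91% of all windows. These are counts of letters with no test, and they do not identify a bound factor.

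Summed over its peaks, accessibility at Satb1 was higher in Vps34-deficient than in control Tregs in both tissues, and Foxp1 was higher in spleen. The 2 spleen controls had a summed Satb1 signal of 182.1 and 182.6 CPM, and the values were 186.9, 216.2, 225.2 and 196.0 CPM in the spleen Vps34-deficient libraries. In lung, controls had 167.4 and 157.4 CPM against 211.1 and 185.4 CPM without Vps34. The libraries of the genotypes did not overlap in either tissue, with a log2 difference of 0.17 ± 0.12 in spleen and 0.29 ± 0.15 in lung (SD of the difference, n = 2 against 4 and 2 against 2). The nearest spleen values were 182.6 and 186.9 CPM. How often the sums of other genes separate in this way was not computed. With so few libraries it is common for single peaks. Of all tested peaks, 15% were higher without overlap in spleen, 23.8% in lung and 6.20% in both.

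At Foxp1, 782.6 and 806.4 CPM were counted in spleen controls, against 850.9, 902.3, 926.4 and 950.7 CPM in spleen Vps34-deficient Tregs, with no overlap and a log2 difference of 0.19 ± 0.08 (SD). In lung the Foxp1 controls had 699.6 and 749.7 CPM and the Vps34-deficient libraries 860.5 and 722.2 CPM, so that the groups overlapped. Bach2 had 626.6 and 681.8 CPM in spleen controls and 665.2, 745.1, 781.4 and 766.1 CPM in spleen Vps34-deficient Tregs. In lung it had 599.6 and 691.8 against 760.5 and 652.1 CPM, and the groups overlapped in both tissues although the mean was higher without Vps34, by 0.18 ± 0.14 in spleen and 0.13 ± 0.21 in lung (log2, SD).

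At Foxo1 and Id3 the genotypes overlapped. The summed Foxo1 signal was 133.4 and 146.9 CPM in spleen controls and 138.2 to 160.9 CPM in spleen Vps34-deficient Tregs, and 113.8 and 145.1 CPM in lung controls against 146.0 and 110.6 CPM. Id3 had 71.1 and 74.0 CPM in spleen controls against 58.0 to 74.9 CPM, and 66.6 and 83.6 CPM in lung controls against 74.5 and 60.01 CPM. The log2 differences were 0.10 ± 0.14 and -0.02 ± 0.38 for Foxo1 and -0.07 ± 0.18 and -0.16 ± 0.32 for Id3 in spleen and lung (SD). With 2 libraries in 3 of the 4 groups, these sums were described and not tested.

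**Figure D1:**
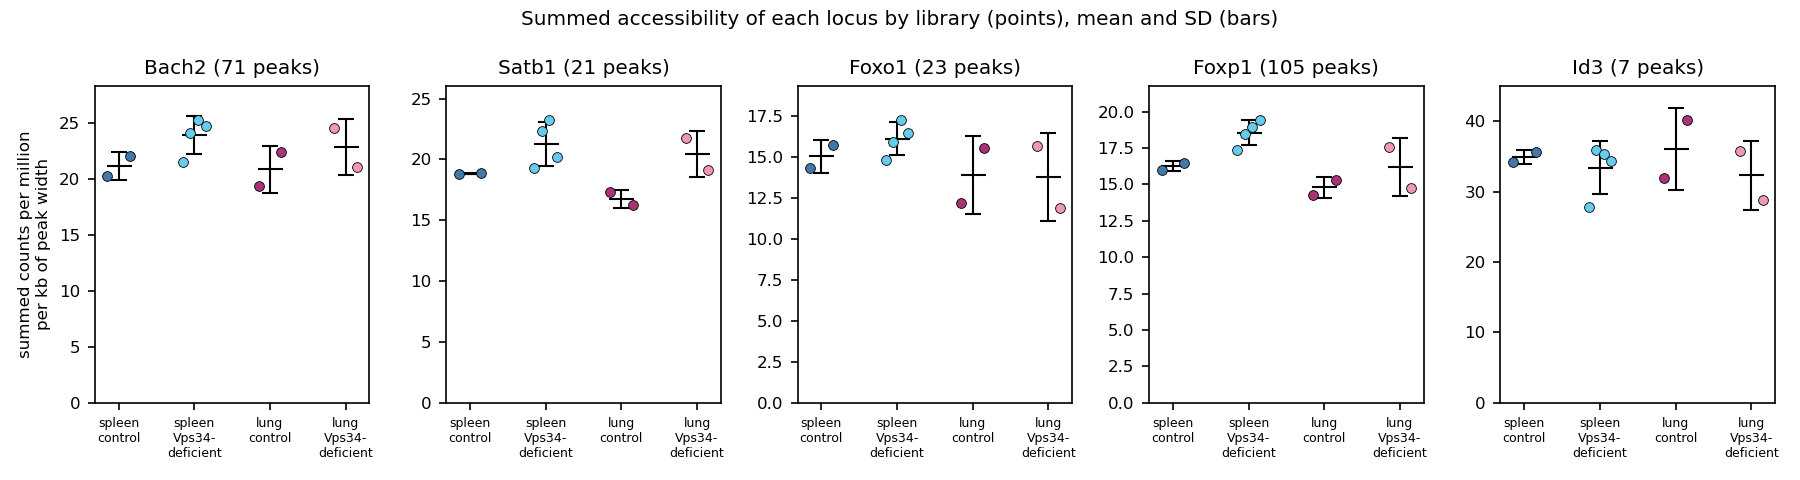
Each panel gives the summed CPM of 1 locus per kb of its summed peak width (vertical axis, from 0) in the 10 libraries, as points by group, with the mean and SD. Satb1 is higher without Vps34 in both tissues with no overlap of libraries, and Id3 has the highest level per kb in every group. The separation at Satb1 was not compared with the sums of other genes outside these loci.

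Compared per kb of peak width, Id3 was the most accessible locus in all 4 groups, at 32.3 to 36.1 CPM per kb as group means. Bach2 followed at 20.9 to 23.9, Satb1 at 16.8 to 21.3, Foxp1 at 14.8 to 18.6 and Foxo1 at 13.8 to 16.1 CPM per kb, the same order in every group. Id3 stood above Bach2 with no overlap of libraries in all 4 groups. Bach2 and Satb1 overlapped in the Vps34-deficient groups of both tissues, Satb1 and Foxp1 overlapped in spleen Vps34-deficient Tregs, and Foxp1 and Foxo1 overlapped in both lung groups.

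Over single peaks, the question was whether accessibility at these loci changes when Vps34 is lost, in each tissue and averaged over tissues. A peak was called when the quasi-likelihood test of edgeR gave an adjusted p (Benjamini-Hochberg, over all 97109 tested peaks) below 0.05 and the absolute log2 fold change was above 0.5. Averaged over tissues, 14 of 225 member peaks were called higher in Vps34-deficient Tregs (6 of 71 at Bach2, 3 of 21 at Satb1 and 5 of 103 at Foxp1), and 0 were called lower. That is 6.22% of members called higher, where 3.52% of all tested peaks were called higher, and 0% called lower, where the background was 4.06%. The excess was not kept throughout: without spleen Vps34-deficient replicate 3, 6 members were called higher (2.67%, against 3.55% of all tested peaks), and with a term for replicate number also 6 (2.67%, against 2.31%). At an unadjusted p below 0.05 there were 63 member peaks in either direction, or 28%, close to the 24.3% of all tested peaks. At Foxo1 and Id3, 0 of 23 and 0 of 7 peaks were called, with 5 and 0 peaks at an unadjusted p below 0.05 and smallest edgeR adjusted p of 0.0828 and 0.277. DESeq2, which tested all 227 members, called 17 higher (7.49%) and 0 lower, against 4.52% and 4.34% of all peaks.

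The average effect was small at most member peaks. The median log2 fold change of the average effect was 0.25 over the 225 members and 0.04 over all tested peaks, and 176 members (78.2%) had a positive value against 54.7% of all tested peaks. By gene, the median was 0.45 at Satb1, 0.29 at Bach2, 0.24 at Foxp1, 0.11 at Foxo1 and 0.06 at Id3. The members have higher counts than other peaks (median mean count 66.1 against 48.6), so the same was read within strata. Among peaks with a mean count of at least 68.8, the average-effect median was 0.14 over 113 members and -0.02 over all peaks, and below it 0.33 over 112 members and 0.14 over all peaks. At or above this count, 12 of 113 members were called higher, against 4.74% of all peaks. Below it 2 of 112 members were called higher, against 2.69% of all peaks, so the members showed no excess of calls there.

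Values at promoters ranged from -0.40 to 0.68 in the average effect. Of 19 peaks within 1 kb of an annotated start, 10 had a positive average effect, with a median of 0.05, and 1 was called higher. Of the 206 other member peaks, 166 (80.6%) were positive, with a median of 0.29, and 13 were called higher. The same split was not made over all tested peaks, of which 54.7% were positive and 3.52% were called higher. Whether the difference is particular to these loci was therefore not tested. The Bach2 promoter peak (chr4:32238362-32238953) had 40.2 and 43.2 CPM in spleen controls, 34.8, 42.8, 43.8 and 42.8 CPM in spleen Vps34-deficient, 33.5 and 45.2 CPM in lung controls and 44.4 and 31.6 CPM in lung Vps34-deficient Tregs. Its groups overlapped in both tissues, with an average log2 fold change of -0.04 ± 0.10 (SE). The promoter peaks of Satb1 (chr17:51832415-51833453), Foxo1 (chr3:52267930-52268548) and Id3 (chr4:136143566-136143994) had average values of 0.14 ± 0.07, -0.08 ± 0.11 and -0.21 ± 0.12 (SE), with edgeR adjusted p of 0.204, 0.696 and 0.277. At the most upstream Foxp1 start, 4 peaks within 3 kb had average values from -0.40 to 0.33, none called.

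**Figure D2:**
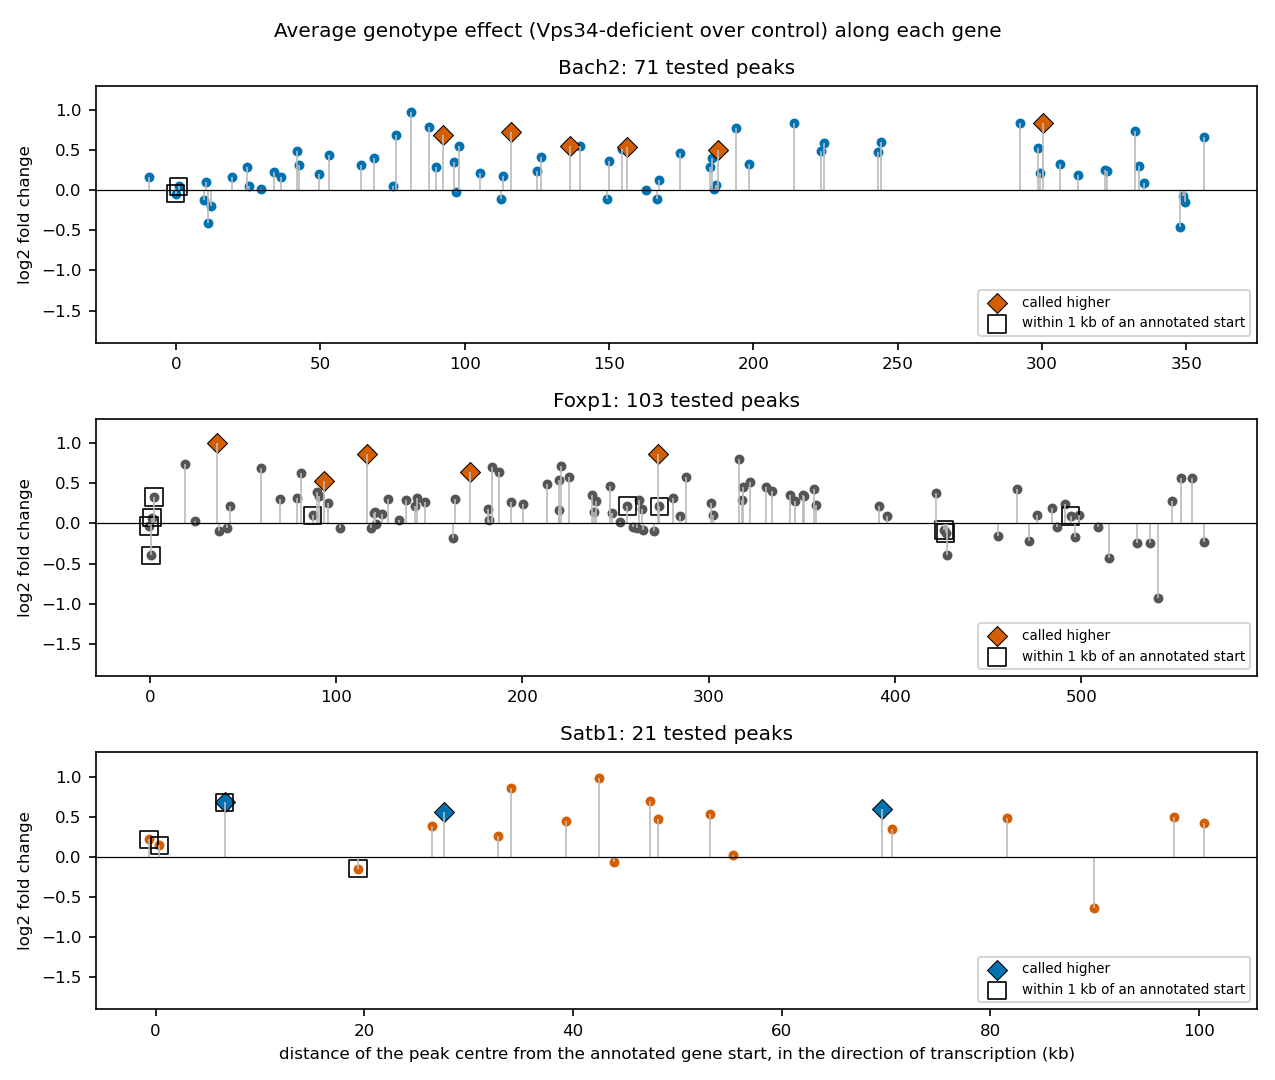
Average log2 fold change (vertical axis, Vps34-deficient over control) of each tested peak at Bach2, Foxp1 and Satb1 against the distance of its centre from the annotated gene start in kb. Diamonds are the 14 called peaks, which lie inside the gene bodies, and squares mark the peaks within 1 kb of an annotated start, which range from -0.40 at Foxp1 to 0.68 at Satb1.

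Foxp1 held the member peak with the smallest p. This intronic peak (chr6:99486247-99486619, 36.3 kb from the start, the first sequence above) had 2.85 and 3.03 CPM in spleen controls and 6.82, 5.87, 6.23 and 8.33 CPM in spleen Vps34-deficient Tregs. In lung, the controls were at 3.62 and 3.17 CPM, below 6.99 and 4.02 CPM without Vps34. Every Vps34-deficient library lay above every control of its tissue. As log2 fold change this was 1.21 ± 0.26 (SE) in spleen (edgeR adjusted p = 0.0163), 0.70 ± 0.31 in lung (edgeR adjusted p = 0.205) and 1.004 ± 0.21 on average (edgeR adjusted p = 0.00302).

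A further intronic Foxp1 peak (chr6:99406097-99406547, 116.4 kb from the start) separated both the genotypes and the tissues. It had 5.79 and 6.89 CPM in spleen controls, 7.93, 9.79, 10.0 and 11.2 CPM in spleen Vps34-deficient, 1.06 and 1.98 CPM in lung controls and 4.22 and 4.45 CPM in lung Vps34-deficient Tregs. None of the 4 groups overlapped, with lung controls lowest and spleen Vps34-deficient Tregs highest. Its genotype effect was 1.42 ± 0.33 (SE) in lung (edgeR adjusted p = 0.0117), 0.63 ± 0.22 in spleen (edgeR adjusted p = 0.162) and 0.86 ± 0.20 on average (edgeR adjusted p = 0.00649). Lung was below spleen with a log2 fold change of -1.91 ± 0.31 in controls (edgeR adjusted p = 2.27e-04) and -1.12 ± 0.24 in Vps34-deficient Tregs (edgeR adjusted p = 0.00239).

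The other Foxp1 peaks that rose on average lay at 272.9 kb, 172.0 kb and 93.6 kb from the start, with log2 fold changes of 0.87 ± 0.20, 0.64 ± 0.17 and 0.52 ± 0.16 (SE). The first of these (chr6:99249629-99250010) had 3.83 and 4.55 CPM in spleen controls, 7.37, 8.44, 5.42 and 8.76 CPM in spleen Vps34-deficient, 2.34 and 1.98 CPM in lung controls and 4.71 and 3.39 CPM in lung Vps34-deficient Tregs, with no overlap of genotypes in either tissue. All 5 Foxp1 peaks called on average lay in the 298 kb of the gene nearest its annotated start, where 52 of 64 peaks were positive. In the other part of the gene, 26 of 39 were positive and 0 were called. Of all tested peaks, 54.7% were positive and 3.52% were called higher, and the difference between the parts was not tested.

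At Satb1, the peak with the smallest p lay at an alternative start 6.6 kb into the gene and covered an untranslated exon (chr17:51826449-51826881). It had 12.8 and 13.9 CPM in spleen controls and 16.8, 19.0, 21.4 and 16.7 CPM in spleen Vps34-deficient Tregs, and 8.93 and 7.06 CPM in lung controls against 19.0 and 13.1 CPM. The genotypes did not overlap in either tissue. The log2 fold change was 0.68 ± 0.14 (SE) on average (edgeR adjusted p = 0.00370), 1.01 ± 0.21 in lung (edgeR adjusted p = 0.00606) and 0.47 ± 0.17 in spleen (edgeR adjusted p = 0.182). It is the 1 promoter peak among the 14, while the main Satb1 promoter, with 50.6 to 74.8 CPM, was not called.

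The Satb1 intronic peak at 69.6 kb (chr17:51763414-51763993, the last sequence above) had 9.27 and 9.16 CPM in spleen controls, 11.0, 12.7, 15.03 and 10.5 CPM in spleen Vps34-deficient, 6.38 and 5.50 CPM in lung controls and 13.2 and 8.89 CPM in lung Vps34-deficient Tregs. Again no genotype groups overlapped, with values of 0.60 ± 0.16 on average (edgeR adjusted p = 0.0178) and 0.89 ± 0.24 in lung (edgeR adjusted p = 0.0337). The third called Satb1 peak, 27.6 kb into the gene over a coding exon, had an average value of 0.55 ± 0.17 (SE) and overlapped between genotypes in lung.

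Bach2 had the most called peaks on average in number (6 of 71, 8.45%), but not in share, where Satb1 had 14.3%. The called Bach2 peaks were all intronic and lay between 92.3 and 300.5 kb from the start. The peak at 156.1 kb (chr4:32394688-32395212) had 11.2 and 12.4 CPM in spleen controls, 13.6, 15.4, 18.0 and 15.4 CPM in spleen Vps34-deficient, 10.2 and 8.75 CPM in lung controls and 18.8 and 12.9 CPM in lung Vps34-deficient Tregs. Its genotypes did not overlap in either tissue, with 0.54 ± 0.14 (SE) on average (edgeR adjusted p = 0.0154) and 0.74 ± 0.21 in lung (edgeR adjusted p = 0.0429). The peak at 136.6 kb had 10.8 and 10.6 CPM in spleen controls, 14.5, 16.8, 16.8 and 14.2 CPM in spleen Vps34-deficient, 8.08 and 9.60 CPM in lung controls and 16.2 and 10.2 CPM in lung Vps34-deficient Tregs, and 0.55 ± 0.14 on average (edgeR adjusted p = 0.0155). The peaks at 300.5 kb and 115.8 kb were weaker in counts and larger in fold, at 0.84 ± 0.25 and 0.72 ± 0.22 (SE). Their calls held in 2 and 3 of 10 fits with 1 library left out, and those at 156.1 kb and 136.6 kb in 7 and 9. All of these calls were lost with a term for replicate number. The peaks at 92.3 kb and 187.9 kb had 0.68 ± 0.22 and 0.50 ± 0.16. In the 173 kb of Bach2 farthest from its start, 24 of 24 peaks had a positive average effect (median 0.44), against 34 of 42 (median 0.23) in the part with the start. Here too the difference between the parts was not tested.

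**Figure D3:**
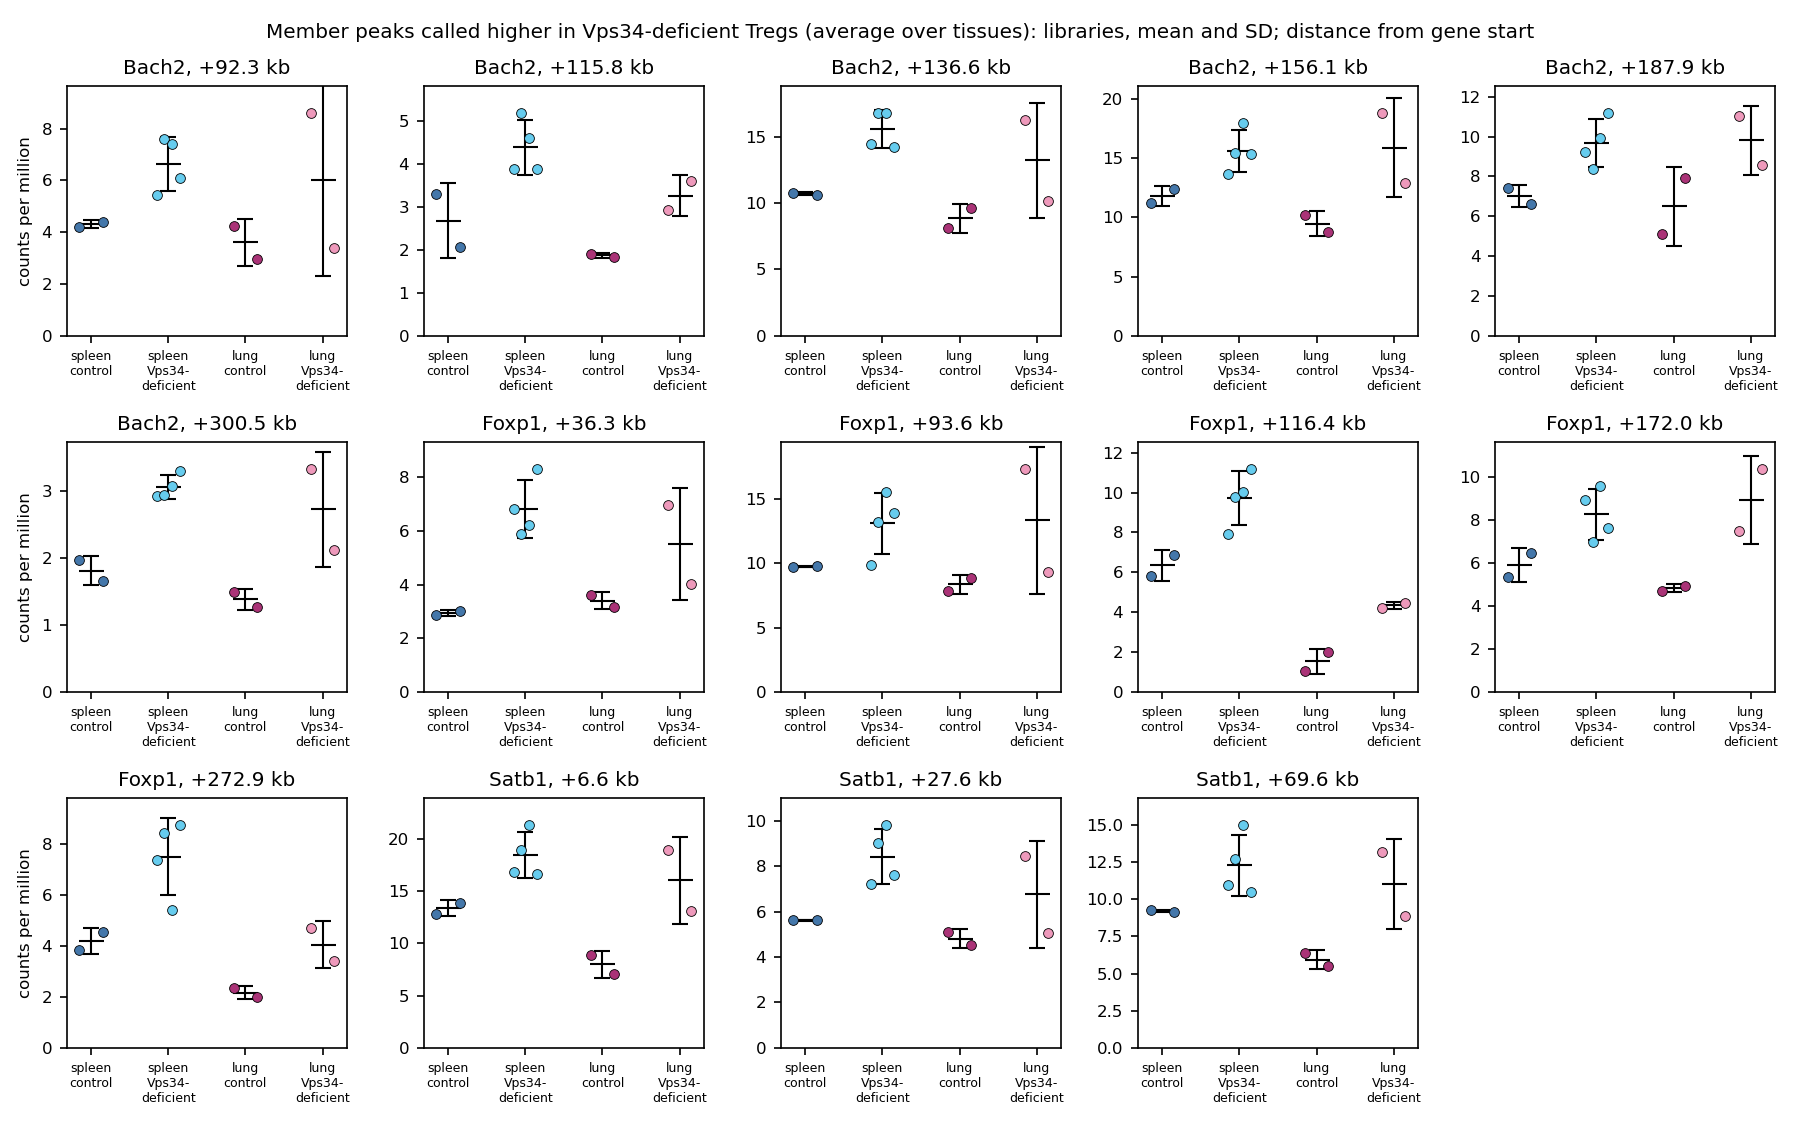
CPM (vertical axis, from 0) in each library of the 14 member peaks called higher on average, by group, with the mean and SD, and with the distance of the peak from the gene start in the panel title. The panels were chosen by the call in these same libraries, so their separation is a description: spleen genotypes do not overlap in 14 of 14 panels and lung genotypes in 12 of 14 (85.7%), against 83.3% and 86.1% of all peaks called higher.

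Libraries of a lung group differed from each other at these loci. Lung Vps34-deficient replicate 1 was above replicate 2 in 11 of the 14 called peaks (78.6%, against 43.9% of all peaks called higher), in 158 of the 225 tested members (70.2%, against 48.5% of all tested peaks) and in the sums of all 5 loci. Lung control replicate 2 was above replicate 1 in 131 of them (58.2%, against 47.6%). Replicate 1 was also the deeper library, with a total of 12312928 against 9448418 counts. The part of depth in this was not tested. Without lung Vps34-deficient replicate 1 the average effect called 5 member peaks higher, or 2.22% against 2.33% of all tested peaks, so the members' share was no longer above the background. Without replicate 2 it called 19, or 8.41% against 2.39%.

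Within spleen alone, 2 of 225 member peaks were called higher, or 0.889%, against 0.441% of all tested peaks, and 0 were called lower, against 1.02%. At an unadjusted p below 0.05 there were 34 (15.1%), near the 14.3% of all tested peaks. With a term for replicate number there were 14 (6.22%, against 11.0%). DESeq2 called 3 higher (1.32%) and 0 lower, against 0.677% and 1.17% of all peaks. Both called peaks were at Foxp1. Beside the peak at 36.3 kb, this was an intronic peak 465.4 kb from the start (chr6:99056932-99057687). It had 26.8 and 26.7 CPM in spleen controls and 38.7, 40.9, 36.4 and 46.4 CPM in spleen Vps34-deficient Tregs, without overlap, with a log2 fold change of 0.60 ± 0.14 (SE, edgeR adjusted p = 0.0218). In lung it had 27.0 and 33.3 against 40.8 and 29.2 CPM, overlapping, with 0.19 ± 0.16. Without spleen control replicate 1, spleen control replicate 2 or spleen Vps34-deficient replicate 4, 0 member peaks were called in spleen, and without spleen Vps34-deficient replicate 2 there was 1. In these fits 0.0175%, 0.036%, 0.123% and 0.106% of all tested peaks were called higher.

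Below that threshold, most spleen values were positive. A positive log2 fold change was seen at 183 of 225 members (81.3%) against 56.5% of all tested peaks, with medians of 0.23 and 0.05. Without spleen control replicate 1 the medians were 0.11 (65.9% positive) and 0.02, and without spleen Vps34-deficient replicate 3 they were 0.14 (71.1% positive) and 0.0036. The medians by gene were 0.38 at Satb1, 0.29 at Bach2, 0.19 at Foxp1, 0.18 at Foxo1 and 0.07 at Id3. All 4 Vps34-deficient libraries were above both controls at 57 members (25.3%), where the background was 15%, and below both at 4 (1.78%), where it was 11.1%.

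Within lung, 7 member peaks were called higher and 2 lower, or 3.11% and 0.889%, against 1.22% and 3.74% of all tested peaks. Positive values were seen at 155 of 225 members (68.9%) against 51.8%, with medians of 0.28 and 0.02. With replicate 1 of the lung Vps34-deficient group left out, the medians were 0.15 (58.2% positive) and 0.09, and with replicate 2 left out, 0.46 and 0.08. Libraries did not overlap at 74 members that were higher (32.9%, background 23.8%) and at 29 that were lower (12.9%, background 22%). Of the 7 that rose, 3 were at Foxp1, 2 at Satb1 and 2 at Bach2. At Foxp1, the peak at 213.2 kb (chr6:99309104-99309981) had 16.2 and 19.5 CPM in lung controls and 33.1 and 28.5 CPM in lung Vps34-deficient Tregs, a log2 fold change of 0.76 ± 0.15 (SE, edgeR adjusted p = 0.00351). In spleen it had 23.2 and 25.5 CPM in controls and 28.1 to 32.3 CPM without Vps34. The Foxp1 peak at 350.4 kb had 38.7 and 37.0 CPM in lung controls against 62.4 and 48.5 CPM, or 0.53 ± 0.13 (edgeR adjusted p = 0.0177).

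The Bach2 peak at 41.8 kb (chr4:32280457-32280852) was called in lung alone. It had 2.76 and 2.82 CPM in lung controls and 6.497 and 5.71 CPM in lung Vps34-deficient Tregs, while spleen controls had 6.68 and 5.37 CPM, and spleen Vps34-deficient libraries had 5.15, 6.85, 8.76 and 6.03 CPM. The lung controls were below every other library. Its log2 fold change was 1.11 ± 0.30 (SE) in lung (edgeR adjusted p = 0.0317) and 0.16 ± 0.23 in spleen (edgeR adjusted p = 0.832).

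The 2 member peaks that fell in lung were both at Foxp1. The intronic peak at 529.7 kb (chr6:98992474-98993583), the Foxp1 peak with the highest mean count, had 35.7 and 47.4 CPM in lung controls and 26.6 and 30.5 CPM in lung Vps34-deficient Tregs, with -0.57 ± 0.14 (SE, edgeR adjusted p = 0.0191). In spleen it had 41.6 and 37.3 CPM against 36.3 to 42.8 CPM, and overlapped. The other, at an alternative Foxp1 start 427.2 kb into the gene (chr6:99095124-99095925), had 42.1 and 49.4 CPM in lung controls and 34.7 and 30.7 CPM in lung Vps34-deficient Tregs, with -0.51 ± 0.15 (edgeR adjusted p = 0.0423). In spleen the values were 29.0 and 26.6 CPM with Vps34 and 25.6, 30.7, 33.1 and 36.2 CPM without it. The second call was kept under 2 of 9 other settings.

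The lung counts rested on few libraries. Member peaks called higher in lung numbered 3 without lung Vps34-deficient replicate 1 (1.33%, against 0.556% of all tested peaks) and 11 without replicate 2 (4.87%, against 1.01%). They numbered 16 without lung control replicate 1 (7.08%, against 5.18%), 4 without lung control replicate 2 (1.77%, against 0.483%) and 4 without spleen Vps34-deficient replicate 2 (1.78%, against 0.854%). Member peaks lower in lung numbered 0 without lung control replicate 2, either lung Vps34-deficient replicate or spleen control replicate 2, where 1.08% to 2.64% of all tested peaks were lower, and 1 without spleen control replicate 1 (0.442%, against 2.97%) or spleen Vps34-deficient replicate 2 (0.444%, against 3.44%). When the 2 lung groups were fitted alone, 0 member peaks were called in either direction, and 0.153% of all tested peaks were called higher and 1.85% lower.

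Values in the spleen and lung rest on separate libraries, for which shared mice are not stated. A positive log2 fold change in both was seen at 138 of 225 members (61.3%) against 37.5% of all tested peaks, and a negative value in both at 25 (11.1%) against 29.3%. By gene, both were positive at 16 of 21 Satb1, 45 of 71 Bach2, 64 of 103 Foxp1, 10 of 23 Foxo1 and 3 of 7 Id3 peaks. At 30 members (13.3%, against 6.20% of all tested peaks) every Vps34-deficient library was above every control of its tissue in both tissues, and at 2 (0.889%, against 6.37%) it was below. The interaction of genotype and tissue was called at 0 member peaks and at 0% of all tested peaks in either direction by edgeR's quasi-likelihood test, and DESeq2 also called 0 members, where it called 0.00513% of all peaks higher and 0.0288% lower. At an unadjusted p below 0.05 there were 18 members (8%), near the 7.27% of all tested peaks. The smallest edgeR adjusted p for the interaction among members was 0.417, so no member peak was shown to respond differently in the tissues.

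**Figure D4:**
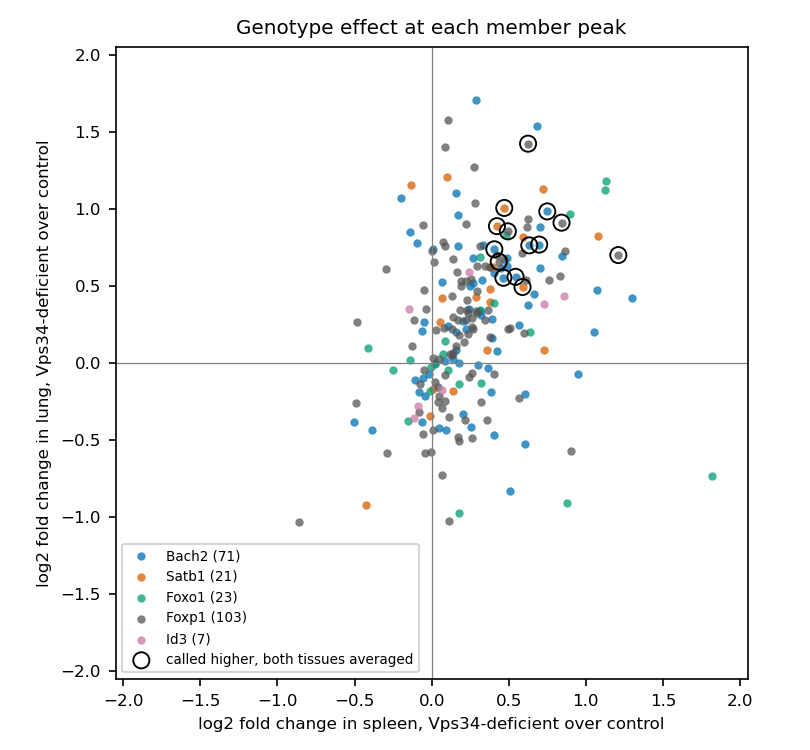
Log2 fold change of Vps34-deficient over control Tregs in spleen (horizontal axis) and lung (vertical axis) for the 225 tested member peaks, coloured by gene, with rings on the 14 called higher on average. Most points, 138, lie in the upper right, and the 2 axes share no library.

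Between tissues, called peaks lay in both directions. In control Tregs, 17 of 225 member peaks were called lower and 7 higher in lung than in spleen, or 7.56% and 3.11%, against 3.53% and 11.8% of all tested peaks. In Vps34-deficient Tregs, 18 were lower and 8 higher, or 8% and 3.56%, against 4.72% and 12.5%. The medians over members were -0.12 in controls and -0.14 in Vps34-deficient Tregs, and 0.04 and -0.03 over all tested peaks. In Vps34-deficient Tregs this rested on single libraries: with replicate 2 of the lung group left out the median was 0.08 (54.9% positive), and with replicate 1 left out it was -0.27, with 0.03 and 0.04 over all tested peaks. In controls it stayed negative, between -0.23 and -0.11 over 19 other settings. Foxp1, with 103 of the 225 tested members, held 11 of the 17 peaks lower in controls and 12 of the 18 in Vps34-deficient Tregs (10.7% and 11.7% of its peaks), and also 6 of the 7 and 5 of the 8 that were higher (5.83% and 4.85%). Its peaks in the 298 kb nearest the start had a median tissue effect of -0.32 in controls, and the others -0.01.

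Single peaks went either way. In controls, the Foxo1 peak at 48.3 kb (chr3:52316381-52316832) had 1.87 and 1.93 CPM in spleen and 0.53 and 0.56 CPM in lung, which gave a log2 change of -1.69 ± 0.51 (SE, edgeR adjusted p = 0.025). At the alternative Satb1 start, lung controls were below spleen controls with a log2 fold change of -0.68 ± 0.21 (edgeR adjusted p = 0.0306), and at the Bach2 peak at 41.8 kb with -1.03 ± 0.29 (edgeR adjusted p = 0.0172). These tissue effects and the lung genotype effects of the same peaks share the lung control libraries. In Vps34-deficient Tregs, the tissue effects at those peaks were -0.14 ± 0.17 and -0.09 ± 0.24. The alternative Foxp1 start at 427.2 kb was higher in lung in controls, by 0.80 ± 0.14 (edgeR adjusted p = 5.94e-04), and had 0.11 ± 0.13 in Vps34-deficient Tregs.

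In Vps34-deficient Tregs, an intergenic peak 5.1 kb from the Id3 start (chr4:136148515-136148712) had 2.37, 1.71, 1.35 and 2.15 CPM in spleen and 4.39 and 5.08 CPM in lung, which gave a log2 change of 1.38 ± 0.31 (SE, edgeR adjusted p = 0.00307). It had 1.65 and 1.51 against 2.98 and 3.17 CPM in controls. The Bach2 peak at 162.8 kb was lower in lung with -0.95 ± 0.22 (edgeR adjusted p = 0.00427) and the Foxo1 peak at 3.3 kb with -0.91 ± 0.28 (edgeR adjusted p = 0.0245), and a weak Satb1 peak at 39.4 kb was higher with 1.78 ± 0.55 (edgeR adjusted p = 0.0251). The Foxp1 peak at 350.4 kb, which rose with Vps34 loss in lung, was higher in lung by 0.69 ± 0.11 (edgeR adjusted p = 1.38e-04). Left-out libraries moved these counts, which are given with the shares of members and of all tested peaks in the same fit. In controls, 6 members were lower (2.65%, against 1.66%) and 2 higher (0.885%, against 3.21%) without spleen control replicate 1. There were 7 lower without spleen control replicate 2 (3.1%, against 2.31%) and 11 lower without lung control replicate 1 (4.87%, against 3.38%). In Vps34-deficient Tregs, 3 were lower (1.33%, against 2.18%) and 4 higher (1.77%, against 7.2%) without lung Vps34-deficient replicate 2, and 9 lower (4%, against 2.7%) without replicate 1 of that group. There were 10 lower without spleen control replicate 2 (4.42%, against 3.3%), 13 higher without lung control replicate 1 (5.75%, against 14.4%) and 5 higher without spleen Vps34-deficient replicate 3 (2.22%, against 8.86%).

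**Figure D5:**
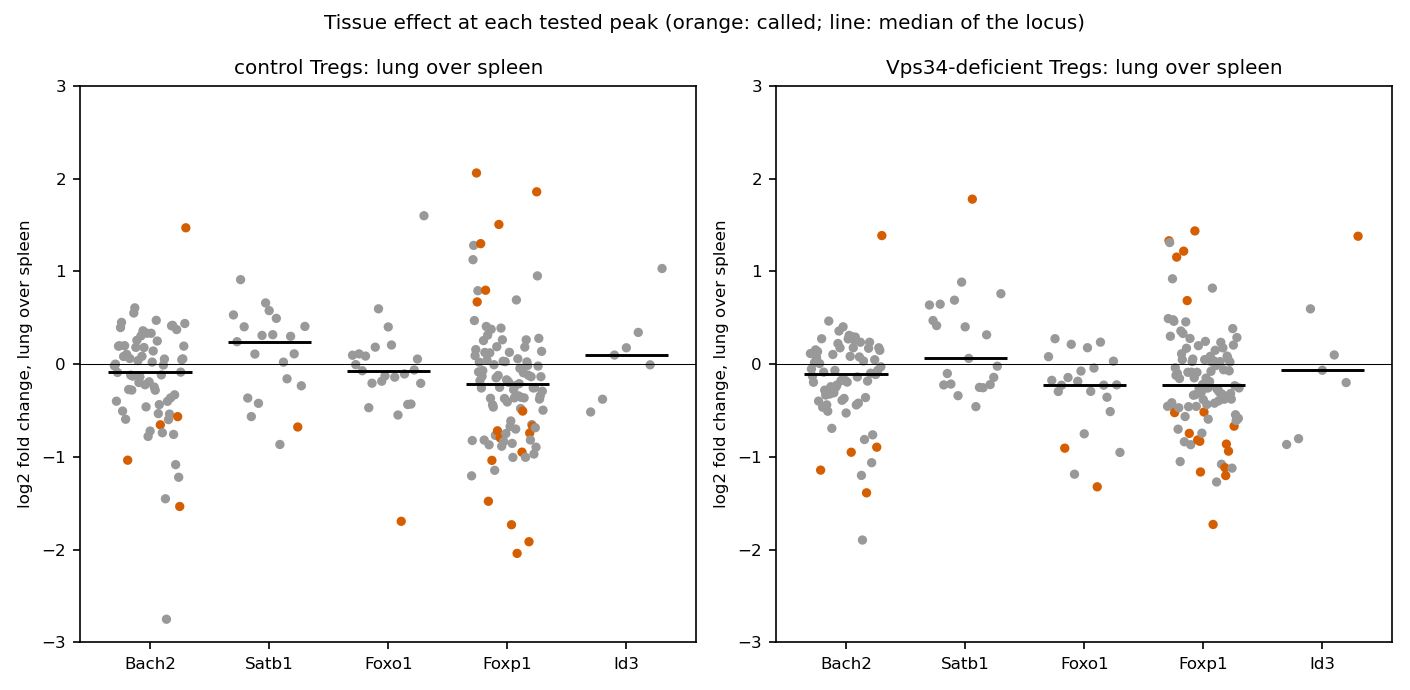
Log2 fold change of lung over spleen (vertical axis) at each tested member peak, by gene, in control (left) and Vps34-deficient Tregs (right), with called peaks in orange and the median of each locus as a line. Called peaks lie on both sides of 0 at Foxp1, and 17 and 18 members were called lower in lung.

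Further genes of the resting and effector programmes are given by their counts. A list of 15 further resting and quiescence genes (among them Tcf7, Lef1, Klf2, Foxo3, Tob1, Btg1, Ets1 and Runx1) had 195 tested peaks, with 0 at Slfn2. Of these peaks, 6 were called higher and 10 lower on average, with a median log2 fold change of 0.02. These shares, 3.08% and 5.13%, lie near the 3.52% and 4.06% of all tested peaks. Lef1, a TCF family factor of naive T cells, had 3 of 33 peaks higher and 2 lower on average, and Runx1 had 0 of 40 higher and 4 lower. Bach1, the paralog of Bach2, had 1 of 8 higher on average and 3 of 8 higher in lung. In spleen 0 peaks of this list were higher and 2 lower (1.03%, against 1.02%), and in lung 4 were higher (2.1%, against 1.22%) and 9 lower (4.62%, against 3.74%).

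Among genes that depend on Foxo1, the chemokine receptor gene Ccr7 had 2 of 11 peaks higher (18.2%, against 3.52% of all tested peaks) and 0 lower on average, with a median log2 fold change of 0.38. Klf2, which is on both lists, had 0 of 4 peaks called in either direction on average, Il7r 0 of 7 and S1pr1 0 of 11, with medians of 0.15, 0.09 and 0.02. The partners and paralogs of Id3, Id2 and the E protein genes Tcf3, Tcf4 and Tcf12, had 0 of 53 called in either direction on average and 2 higher in lung (3.77%, against 1.22%). Transcription factor genes of effector Tregs (Prdm1, Maf, Irf4, Batf, Rora, Gata3, Nfil3 and Pparg) had 1 of 112 peaks higher and 13 lower on average, and 0 higher and 14 lower in lung, where their median was -0.22. The share lower was 11.6% on average and 12.5% in lung, against 4.06% and 3.74% of all tested peaks. Pparg accounted for 6 of the 13 and Rora for 4.

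Over the 10 libraries, the summed signals of the members were correlated to different degrees. The Pearson correlation of log2 summed CPM was 0.86 for Bach2 with Foxp1, 0.84 for Foxo1 with Foxp1 and 0.82 for Bach2 with Foxo1. It was 0.79 for Satb1 with Foxp1, 0.74 for Bach2 with Satb1 and 0.51 for Satb1 with Foxo1. For Id3 it was 0.61 with Foxo1, 0.45 with Bach2, 0.21 with Foxp1 and 0.01 with Satb1. Many other genes were closer: the nearest other member had rank 33 of 12215 genes for Bach2 and rank 151 for Foxp1. Of 12216 genes, it had rank 173 for Satb1, 514 for Foxo1 and 1789 for Id3. Among protein-coding genes with at least 3 tested peaks, the 3 with the highest correlation with Bach2 were Tcf25, Map4k4 and Irf4 (0.93, 0.92 and 0.92), and with Satb1 Dlat, Dph5 and Tgfbr3 (0.95, 0.95 and 0.94). For Foxp1 they were Arl14, Pofut1 and Tlr1 (0.95 each), for Foxo1 Syvn1, Mrpl49 and Gimap8 (0.98 each) and for Id3 Ikbkg, Crtc3 and Plekha4 (0.97, 0.96 and 0.95). These are descriptions over 10 libraries, which share depth and library quality as well as genotype and tissue.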

How the data were processed

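ATAC-seq libraries of sorted Tregs were sequenced and processed by the authors, who trimmed reads, aligned them with BWA, removed duplicates with Picard, shifted reads for the transposase offset, kept nucleosome-free reads, called peaks per sample with MACS2, kept peaks found in 50% of the replicates of a genotype, merged them on an overlap of 100 bp and counted reads with bedtools. The submitters' processing notes name cutadapt 1.9, Picard 1.65 and MACS2 2.1.0.20150603 and the build mm10 (GRCm38), whereas the methods text names mm9. In the deposited table, 51.1% of 22028 protein-coding starts of GRCm38 (GENCODE vM21) lay in a peak and 2.66% to 2.81% of shifted ones did, so GRCm38 was used. Between 91.5% and 96.5% of the counts were even, so that both mates of a fragment appear to be counted.

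The deposited values are raw counts per peak. From them CPM of the column total was computed, and counts were fitted with edgeR 4.0.16 (R 4.3.3; filterByExpr, TMM scaling, quasi-likelihood, 4 group means over 10 libraries, or tissue plus genotype for the average effect) over all 97109 tested peaks. SE is the absolute log2 fold change over the square root of F. The test was tested on simulated data. DESeq2 1.42.0, other scalings, filters, halved counts, a replicate block and each library left out were alternatives.

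Peaks named were, per gene, the strongest promoter peak and strongest peak, called genotype peaks (at most 10 per comparison, by p), and the top called tissue peak whose libraries did not overlap. Others named outside this rule, such as further called Foxp1, Bach2 and Satb1 peaks, were chosen after their values were seen. The members and gene lists were chosen with earlier results of these data known. Groups were taken from the labels. Motif strings were searched in the central 300 bases of peaks. One gene of the Foxo1-dependent list is not reported here, so that list is given by gene.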

Additional observations from a re-analysis of the deposited data

Results flagged for a closer look

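At 2 peaks, 1 spleen Vps34-deficient library stood apart from the other 3 of its group. Replicate 1 had the lowest value at the Bach2 promoter peak, 34.8 CPM, where its gap to the next library was 0.886 of the range of the group. It was also lowest at the Id3 peak over the gene start, with 18.9 CPM and a gap of 0.856 of the range. Chance marks about 1 in 20 groups in this way, and neither peak was called in a genotype comparison.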

How the results depend on the processing

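Over all members the median log2 fold change of the average effect stayed positive, and lay between 0.20 and 0.32 over 18 other settings, and that of all tested peaks between 0.01 and 0.05. By gene, that of Foxo1 (0.11) was -0.05 without spleen control replicate 1, and that of Id3 (0.06) turned negative in 4 settings, down to -0.08 without lung Vps34-deficient replicate 1. Counts of calls moved more. With halved counts, 214 members passed the filter on low counts, against 225. The labels share replicate numbers, but same-numbered libraries did not deviate together (12 pairs, correlations -0.10 to 0.06), so the numbers were not taken to pair the libraries. In a group of 2 libraries the deviations from the mean mirror each other. Pairs between such groups therefore repeat a value, and the pairs are not independent. Chromosome Y signal was alike, low or high, in all 4 same-numbered spleen and lung pairs of a genotype, whose correlations were -0.01 to 0.04, and whether these shared a mouse was not tested. With the replicate block, 0 member peaks were higher in spleen, 4 higher and 1 lower in lung (1.78% and 0.444%, against 0.476% and 2.38% of all tested peaks), 6 higher on average (2.67%, against 2.31%), 6 lower in lung than spleen in controls (2.67%, against 2.37%), and 3 higher and 3 lower in Vps34-deficient Tregs (1.33% each, against 5.19% and 1.76%). With only the 2 groups compared in the fit, 4 were higher in spleen (1.78%, against 1.45%), 0 higher and 0 lower in lung, and 5 lower in lung than spleen in controls (2.33%, against 2.16%). At an adjusted p below 0.1, 4 were higher in spleen (1.78%, against 1.36%), 13 higher in lung (5.78%, against 2.59%) and 27 lower in lung than spleen in controls (12%, against 5.32%). Peaks lower in lung without Vps34 numbered 1 under library size alone, median-of-ratios factors, the stricter filter of at least 20 counts in 2 libraries, halved counts and DESeq2 (0.441% to 0.467%, against 3.43% to 3.77%). A term for chromosome Y signal, chosen after seeing the data because each group held libraries of 7.0 to 21.4 and of 56.9 to 67.6 CPM, gave 12 higher on average (5.33%, against 3.75%), 7 higher and 2 lower in lung (3.11% and 0.889%, against 1.38% and 3.9%) and 2 higher in spleen (0.889%, against 0.659%). The summed Satb1 tissue difference in controls was -0.092 after TMM scaling, against -0.17.

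Leaving out 1 library at a time gave 5 to 19 member peaks higher on average (1.47% to 5.93% of all tested peaks), 0 to 3 higher in spleen (0.0175% to 1.24%), 3 to 16 higher and 0 to 2 lower in lung (0.483% to 5.18% and 1.08% to 4.06%), 2 to 7 higher and 6 to 24 lower in lung than spleen in controls (3.21% to 11.4% and 1.66% to 4.61%), and 4 to 13 higher and 3 to 22 lower in Vps34-deficient Tregs (7.2% to 14.4% and 2.18% to 5.92%). On average, 6 were called higher without spleen Vps34-deficient replicate 3 (2.67%, below the 3.55% of all tested peaks), 8 without spleen Vps34-deficient replicate 2 (3.56%, against 2.25%) and 8 without lung control replicate 2 (3.54%, against 1.47%). Of the 10 named average calls, 4 held in every left-out fit and every other setting, the Foxp1 peaks at 36.3, 116.4 and 272.9 kb and the alternative Satb1 start. Of 9 named lung calls, 2 held in every left-out fit and 0 in every setting, and of 2 spleen calls 0 held in every left-out fit. Of 5 named tissue calls in controls 2 held throughout, and of 8 in Vps34-deficient Tregs 3 held in every left-out fit and 2 in every setting. Under the replicate block the tissue calls at the Foxo1 peak at 48.3 kb and the alternative Satb1 start in controls, and at the Bach2 peak at 162.8 kb, the Foxo1 peak at 3.3 kb, the Satb1 peak at 39.4 kb and the Id3 peak at 5.1 kb in Vps34-deficient Tregs, kept their direction and were no longer called. Among named peaks, signs that turned were of uncalled peaks. The Bach2 peak with the highest mean count (start 32257710) in lung, -0.01, was 0.00827 with library size alone, 0.019 with median-of-ratios factors, 0.018 with halved counts, 0.019 with DESeq2, 0.0027 with the replicate block, and -0.16 to 0.25 without single libraries. The Foxp1 peak at 529.7 kb in spleen was 0.0038 under the stricter filter and -0.11 to 0.023 without single libraries. Left-out ranges that crossed 0 were -0.27 to 0.23 in lung and -0.13 to 0.012 in spleen at the Bach2 promoter, -0.50 to 0.19 in lung and -0.0940 to 0.021 in spleen at the Foxo1 promoter, -0.013 to 0.087 in spleen at the Satb1 promoter and -0.37 to 0.0064 in lung at the Id3 peak with the highest mean count.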
